A study of Mus musculus with 16 samples.

Results

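Transcripts of 8 genes known from naive mouse stem cells were followed in RNA bisulfite sequencing libraries: Dppa2, Dppa3, Dppa4, Dppa5a, Fgf4, Gdf3, Tdgf1 and Utf1. They were chosen by name, 4 from the developmental pluripotency associated (Dppa) genes and 4 from genes of secreted signals and chromatin in stem cells, and every RefSeq mRNA (an NM_ accession) listed for them was taken, with isoforms kept apart. The 8 genes were listed with 9 transcripts of 15330, Dppa4 with a pair of isoforms, and with 2942 of the 4938637 cytosines listed in at least 1 library. All 9 passed the filter on low coverage, a mean of 1 read per cytosine or more, that left 11240 transcripts to test.

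The study sequenced bisulfite-treated RNA of J1 mouse embryonic stem (ES) cells that carried Dnmt2-/- or were wild type. Dnmt2, whose gene symbol is Trdmt1, methylates cytosines of tRNAs, and bisulfite leaves 5-methylcytosine in place while it converts other cytosines, so the share of reads that still show a cytosine (non-conversion) holds methylation plus failed conversion. The long RNA fraction, over 200 nt and depleted of rRNA, gave 3 Dnmt2 knockout and 3 wild type libraries, 6 of 16 in the series, and these alone listed mRNAs. Both genotypes were grown with serum and leukaemia inhibitory factor (the labels' ESGRO) on primary fibroblast feeders that were then removed by their faster attachment to dishes. The labels do not say whether the libraries of a genotype came from separate cultures or clones, so the p-values measure the spread between these libraries, which may be technical.

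Dppa2 and Dppa4 act in mouse cells as a pair of chromatin proteins that keep developmental promoters accessible and switch on genes of the cleavage-stage programme. Dppa3 is a maternal factor that shields DNA of the early embryo from oxidation of its methylation and that also binds the maintenance factor Uhrf1, and Dppa5a is an RNA-binding protein with a KH domain. Fgf4 is the ligand through which ES cells signal to their own Fgf receptors and the ERK kinases, Gdf3 is a TGF-beta family ligand, Tdgf1 (Cripto) is the co-receptor through which Nodal and related ligands reach activin receptors, and Utf1 is a chromatin-bound protein of undifferentiated cells.

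The libraries summed to 37786723 to 143488903 reads over cytosines and listed 2304342 to 4289381 cytosines each, with a median coverage of 6 to 11 reads, lowest in wild type replicate 3. In no pair of libraries of a genotype did more than 3.46% of cytosines at 10 reads or more hold identical values. Trdmt1 had a scaled mean coverage of 1.43, 0.501 and 1.07 in the knockout libraries, against 4.73, 3.80 and 3.21 in the wild type libraries and was lower in every library labelled knockout. All 8 ES cell markers were listed, with summed levels of 627 to 716 in the knockout and 665 to 704 in the wild type libraries, and Pou5f1, Sox2 and Zfp42 were well covered in every library, while Esrrb was listed in only 2 of 6. The sums were carried by Zfp42 and Pou5f1. Of 9 ES cell marker transcripts tested 7 had a log2 difference, knockout minus wild type, above 0, with a median of 0.49. None passed the test, and the median fell on a thinly covered Tbx3 isoform. The 2 below 0 were the better covered Pou5f1 isoform (-0.24) and Sox2 (-0.09). Among the 7 above 0 were Zfp42 at 0.05 and Tfcp2l1 at 0.65. In 2 of the 9 the knockout lay wholly above the wild type, as in 6.09% of all transcripts. Over all transcripts 55.2% had a difference above 0. Of 12 fibroblast markers 10 were listed, with summed levels of 70.0 to 107 in the knockout and 89.4 to 144 in the wild type libraries; Postn and Lum were not listed and Dcn was at 0 in 5 of 6 libraries. Of the 10 fibroblast markers 9 had a log2 difference, knockout minus wild type, below 0, with a median of -0.61, none past the test. That median fell between the thinly covered Col3a1 and Col6a1. The sums were carried by Fn1 (-0.20), Tagln (0.32) and Acta2 (-0.30). By library they were 107, 105 and 70.0 in the knockout and 90.1, 89.4 and 144 in the wild type. The knockout sums were thus above the wild type in replicates 1 and 2 and below it in replicate 3. The part of the fibroblast markers in the results was not tested. Both libraries numbered 3 stood apart in how unevenly reads lay along transcripts: over 1489 transcripts the median coefficient of variation was 75%, 74.0% and 96.8% in the knockout libraries and 76.5%, 76.4% and 94.2% in the wild type libraries. The first principal component of log2 coverage, 43.4% of the variance, set wild type replicate 3 apart from the other 5 libraries.

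The level of a transcript is given as its scaled mean coverage, the mean number of reads over its listed cytosines divided by a library factor. It is a level per cytosine listed in at least 1 library, so cytosines that no library listed do not lower it. Set side by side between genes, it describes the listed stretches only, which differ in length and in evenness of coverage. A read counts once for each cytosine it covers and the value is no read count. On this scale the 8 genes spread widely. Dppa5a stood at the top with a mean of 1462 over the 6 libraries, rank 13 of 11240 tested transcripts. Tdgf1 followed at 208 (rank 159), Utf1 at 94.3 (rank 389) and Fgf4 at 38.6 (rank 1022). Dppa2, Gdf3 and the longer listed Dppa4 isoform lay close together at 31.3, 28.4 and 28.3, and Dppa3 was lowest at 9.38 (rank 4225).

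The steps between Dppa5a and Tdgf1 (7.01-fold), Tdgf1 and Utf1 (2.21-fold) and Utf1 and Fgf4 (2.45-fold) exceeded the spread of all 6 libraries, whose ranges did not overlap. The same held for Dppa4 over Dppa3 (3.02-fold). Fgf4 over Dppa2 (1.23-fold) kept its order in 5 of 6 libraries, Dppa2 over Gdf3 (1.10-fold) in 4 and Gdf3 over Dppa4 (1.00-fold) in 3, and the ranges of these neighbours overlapped.

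**Figure D1:**
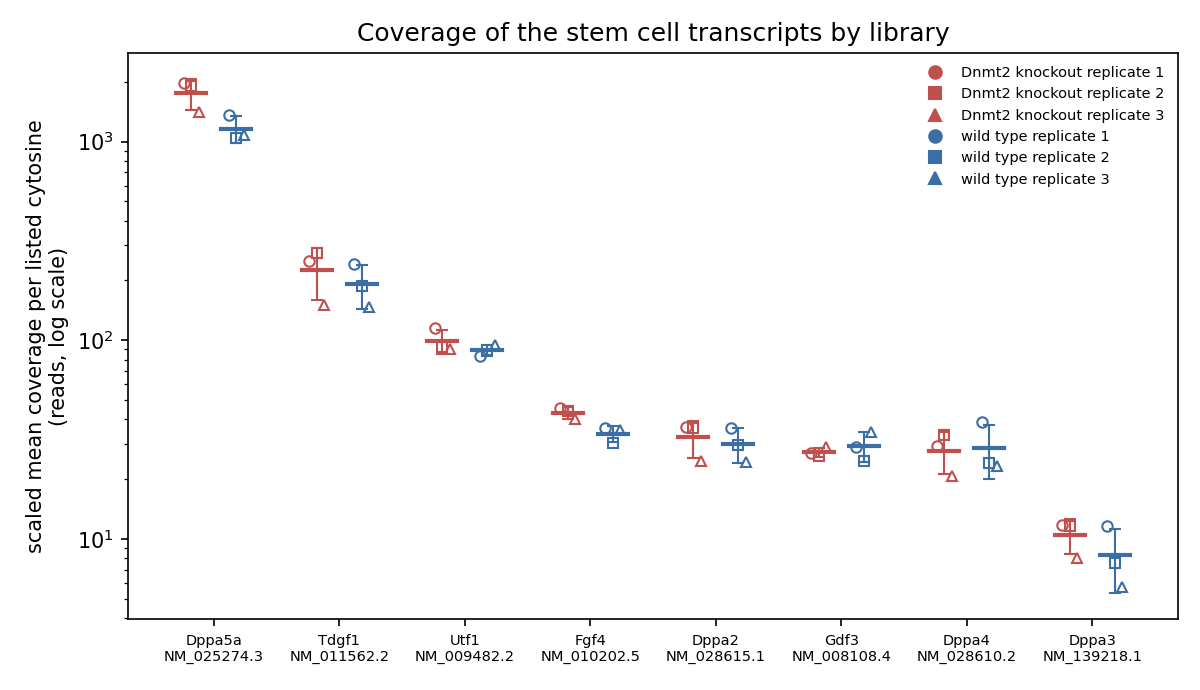
Scaled mean coverage per listed cytosine (log axis) of 8 member transcripts, 1 point per library, with Dnmt2 knockout left of wild type; bars give the mean and error bars the SD of 3 libraries. Dppa5a (1401 to 1966 in knockout, 1041 to 1363 in wild type) and Fgf4 (40.0 to 45.5 in knockout, 30.2 to 36.3 in wild type) are the pairs whose points do not overlap.

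Between genotypes no member passed the test. Across all 11240 transcripts limma with Benjamini-Hochberg adjustment called 0% at an adjusted p under 0.05, and 775 (6.9%) had an unadjusted p under 0.05, among them 2 of the 9 member transcripts, Dppa5a and Fgf4, both higher in the knockout as were 324 (2.88%) of all. In the same 2 the libraries of the genotypes did not overlap, with the knockout above, as in 6.09% of all transcripts. The median log2 difference, knockout minus wild type, was 0.21 over the 9 member transcripts with 7 above 0, against a median of 0.03 over all transcripts with 55.2% above 0. The size of the member median depended on single libraries: it was 0.11 without knockout replicate 1, 0.13 without wild type replicate 3, 0.39 without knockout replicate 3 and 0.40 without wild type replicate 1. Over the 8 member transcripts with a mean of 5 or more it was 0.18, with 6 above 0. The result with the smallest adjusted p over the alternatives tried was also short of the threshold, at 0.21 for Fgf4 and 0.24 for Dppa5a in limma fits.

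Among the well-covered Dppa transcripts, Dppa5a had the largest log2 difference. Its scaled mean coverage was 1966, 1913 and 1401 in the 3 knockout libraries, against 1363, 1041 and 1085 in the 3 wild type libraries. The lowest knockout library, replicate 3, lay just above the highest wild type library, replicate 1. The means were 1760 ± 312 in the knockout and 1163 ± 175 in the wild type (SD, n = 3 each), a log2 difference of 0.59 with an SE of 0.23 and a limma interval of 0.06 to 1.12 at 95%, before any adjustment. Its limma p was 0.0331 and adjusted 0.634. In these bulk samples more cells with the transcript and more of it per cell cannot be told apart. The gene table names 2 near copies, Dppa5b and Dppa5c, and how the authors' mapping placed reads shared with them is not given in the sources used here.

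Dppa2 and Dppa4, the chromatin pair, gave overlapping values. For Dppa2 the coverage was 36.6, 36.3 and 24.6 in the knockout libraries and 36.4, 29.8 and 24.3 in the wild type libraries, a log2 difference of 0.10 (SE 0.21, limma adjusted p 0.993). In both genotypes replicate 3 was the lowest. The Dppa4 isoform NM_028610.2 had 29.3, 33.5 and 20.6 in the knockout libraries against 38.7, 24.2 and 23.3 in the wild type libraries, a log2 difference of -0.04 (SE 0.24, limma adjusted p 0.996) whose interval ran from -0.60 to 0.53.

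The other Dppa4 isoform, NM_001018002.1, was barely seen. It had coverage of 3.42, 4.86 and 0.29 in the knockout libraries and of 0, 2.08 and 0 in the wild type libraries, where 2 libraries listed none of its cytosines. The log2 difference of 1.56 had an SE of 0.99 (limma adjusted p 0.897). Both isoforms were listed only over short stretches, 18 cytosines between positions 252 and 317 for NM_001018002.1 and 71 between positions 211 and 514 for NM_028610.2, counted from the 5′ end. Fgf4, by contrast, was listed from position 2 to 3022 with 767 cytosines. Reads that fit both isoforms may have been split between them, and the Dppa4 level describes that stretch only.

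Dppa3 was the thinnest of the single-isoform genes. Its coverage was 11.8, 11.6 and 8.05 in the knockout libraries and 11.5, 7.57 and 5.74 in the wild type libraries. Knockout replicates 1 and 2 and wild type replicate 1 were nearly level, and the other 3 libraries lay lower. The log2 difference was 0.35 (SE 0.26, limma adjusted p 0.944), and of its 154 listed cytosines only 65 were listed in every library, with 66 in wild type replicate 3 against 153 in knockout replicate 1. A copy named Dppa3-ps is in the gene table.

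Of the ligands, Fgf4 had the higher values in the knockout. Its coverage was 45.5, 44.1 and 40.0 in the knockout libraries, against 36.3, 30.2 and 35.2 in the wild type libraries. Every knockout library lay above every wild type library, by a gap smaller than the spread within the wild type. The means of 43.2 ± 2.84 in the knockout and 33.9 ± 3.23 in the wild type (SD, n = 3 each) gave a log2 difference of 0.35 with an SE of 0.12, and the interval ran from 0.06 to 0.63 before adjustment. With a limma p of 0.0227 and an adjusted p of 0.547 the difference did not pass.

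Gdf3 gave 26.9, 26.0 and 29.0 in the knockout libraries and 29.0, 24.6 and 34.7 in the wild type libraries. The knockout values lay inside the wild type range, and the log2 difference of -0.09 (SE 0.15, limma adjusted p 0.985) was 0.02 without wild type replicate 3. Its interval ran from -0.44 to 0.25.

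Tdgf1, the co-receptor, varied more between libraries than between genotypes. Its coverage was 250.3, 274 and 151 in the knockout libraries and 242, 187 and 147 in the wild type libraries. Replicate 3 was again lowest in each genotype, and the log2 difference was 0.21 (SE 0.27, limma adjusted p 0.982), with 0.025 without wild type replicate 3 and 0.47 without knockout replicate 3. Pseudogene copies Tdgf1-ps1 and Tdgf1-ps2 are in the gene table.

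Utf1 had 115, 92.3 and 90.6 in the knockout libraries against 83.1, 89.7 and 94.9 in the wild type libraries. Knockout replicate 1 was the only library above the wild type range. The log2 difference was 0.15 with an SE of 0.14 and an interval of -0.17 to 0.46 (limma adjusted p 0.973).

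**Figure D2:**
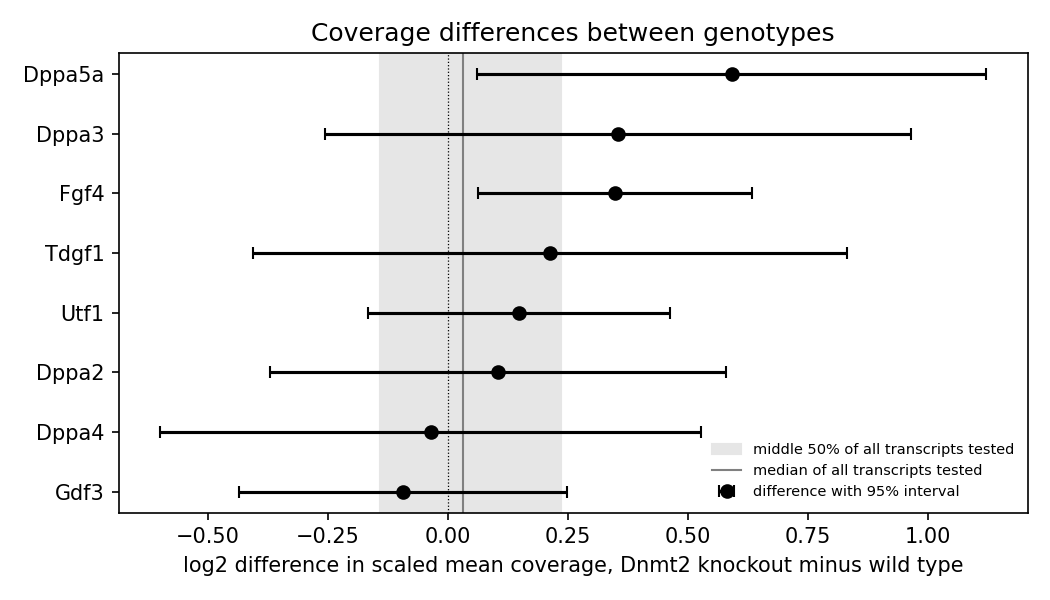
Log2 difference in scaled mean coverage (x axis, Dnmt2 knockout minus wild type) for 8 member transcripts, with the 95% interval of the limma fit before adjustment; the grey band holds the middle 50% of all 11240 transcripts and the grey line their median of 0.03. Dppa5a (0.59) and Fgf4 (0.35) have intervals that do not reach 0, and none of the adjusted p-values passed.

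Across the 6 libraries the members fell into loose groups of like pattern, given here as a description, since all points share the same libraries and scale factors. Dppa2 and Tdgf1 followed each other most closely (Pearson r 0.986 on log2 coverage, n = 6 libraries), with Dppa3 near both (0.916 with Dppa2, 0.919 with Tdgf1). Dppa5a and Fgf4 formed the next pair (r 0.946). Gdf3 had a negative r with each of the other 7, from -0.57 with Tdgf1 to -0.06 with Fgf4.

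Among 4010 other transcripts with a mean coverage of 10 or more, the nearest in pattern over the 6 libraries were Rabif and Tex19.1 for Dppa5a (r 0.994 and 0.989), Amt and Tmed4 for Fgf4 (0.991 and 0.985), and Tmsb4x and Dlgap5 for Tdgf1 (0.998 and 0.997). Gm5617 and Acat1 were nearest to Dppa2 (0.992 and 0.990), Gtf2b and Hsf2 to Dppa4 (0.998 and 0.997), and Snrpd2 and Rpl39l to Dppa3 (0.993 each). For Gdf3 they were 2610507B11Rik and Ppil1 (0.989 and 0.988) and for Utf1 Gid8 and Erg28 (0.978 and 0.970). These values, too, rest on 6 points that share their libraries.

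Reads lay in hills along the transcripts, and for several members the highest point sat at the same place in both genotypes. Tdgf1 had its highest cytosine at position 365 in all 6 libraries, at 5.15 to 8.68 times the transcript's mean in the knockout and 5.65 to 7.12 times in the wild type. Gdf3 peaked at position 665 or 667 in every library. Dppa2 peaked at position 884 in 5 of 6 libraries and at 869 in knockout replicate 1. The highest point moved between libraries in others: Fgf4 peaked at position 60 in knockout replicate 1 and between 405 and 419 in the other 5 libraries, and thinly covered Dppa3 peaked at 262, 264 and 590 in the knockout libraries and at 582, 283 and 578 in the wild type libraries.

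Dppa5a was more even, with its highest cytosine at 2.05 to 2.63 times the mean in the knockout and 2.04 to 2.79 times in the wild type, at position 494 in 5 of 6 libraries and at 200 in knockout replicate 2. When each listed span was cut into 3 equal stretches, the last held 1.03 to 1.07 times the coverage of the first in the knockout and 1.03 to 1.12 times in the wild type for Dppa5a. For Tdgf1 the ratio was only 0.262 to 0.291 in the knockout and 0.284 to 0.298 in the wild type. For Gdf3 it was 0.185 to 0.210 in the knockout and 0.174 to 0.199 in the wild type. These 2 transcripts were thus seen mainly in their 5′ parts. A milder tilt was general: over 1489 transcripts the median ratio was 0.578 to 0.683 in the knockout and 0.586 to 0.681 in the wild type. For Gdf3 and Dppa2 the libraries numbered 3 had the steepest peaks: for Gdf3 10.3 times the mean in the knockout and 11.8 times in the wild type, and for Dppa2 9.12 times and 7.89 times, against 4.76 to 6.45 times in the other 4 libraries over both genes. The same held for Tdgf1, at 8.68 and 7.12 times against 5.15 to 5.86 times. It held for Fgf4 as well, at 6.58 and 6.77 times against 3.40 to 5.08 times. It did not hold for every member, since the peak of Utf1 stood at 5.33 times the mean in knockout replicate 3 but at 3.46 times in wild type replicate 3, the lowest of the 6 libraries.

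**Figure D3:**
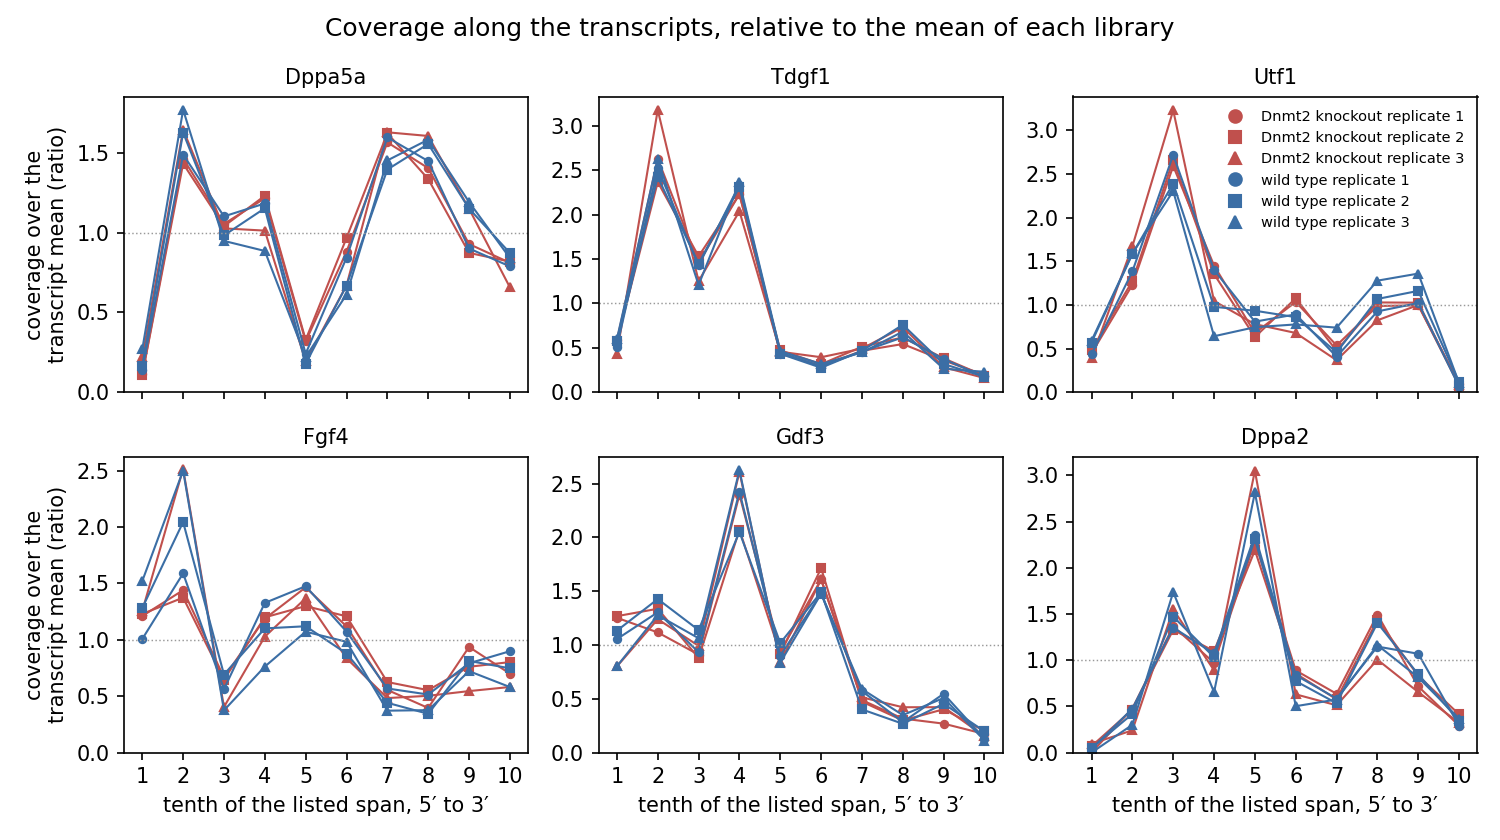
Coverage over the library's own transcript mean (y axis, ratio) in 10 equal steps of the listed span from 5′ to 3′ (x axis) for 6 members, 1 line per library, knockout red and wild type blue, with a scale for each panel. The lines of both genotypes follow similar hills, and the triangles, the libraries numbered 3, reach the highest points in Gdf3, Dppa2, Fgf4, Tdgf1 and Dppa5a.

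The pathways around these genes were listed by name. The Nodal list (ligands, activin receptors, Smads and convertases around Tdgf1 and Gdf3) had 19 genes, 15 of them tested in 15 transcripts. None passed, 8 lay above 0 and 7 below, and the median log2 difference of 0.01 was close to the 0.03 of all transcripts. Its largest negative values belonged to the secreted Nodal antagonists, themselves targets of the pathway. Lefty1 had 103, 94.8 and 117 in the knockout libraries against 195, 137 and 209 in the wild type libraries, and Lefty2 had 19.6, 20.1 and 39.9 in the knockout libraries against 41.8, 40.3 and 70.2 in the wild type libraries.

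For both Lefty genes every knockout library lay below every wild type library, as for 1342 transcripts in either direction (11.9%). Their log2 differences were -0.76 (SE 0.18, limma adjusted p 0.375) for Lefty1 and -0.96 (SE 0.31, limma adjusted p 0.495) for Lefty2. The largest positive values were those of Smad7, an inhibitory Smad, with a log2 difference of 0.32 (limma adjusted p 0.856), and Nodal, the ligand that Tdgf1 serves, with 0.31 (limma adjusted p 0.787). Nodal had 32.9, 31.7 and 31.1 in the knockout libraries and 24.7, 22.1 and 31.1 in the wild type libraries, where replicate 3 was level with the knockout.

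The Fgf and ERK list, from receptors to feedback targets, had 34 genes, 31 tested in 38 transcripts. None passed, 25 transcripts lay above 0 and 13 below, and the median log2 difference was 0.10. Etv5, a transcription factor induced by ERK, had 78.0, 71.1 and 75.7 in the knockout libraries against 50.5, 44.8 and 72.1 in the wild type libraries, a log2 difference of 0.45 (SE 0.18, limma adjusted p 0.652). Spry4, a feedback inhibitor, had 31.4, 25.3 and 44.5 in the knockout libraries against 21.9, 23.6 and 27.6 in the wild type libraries (0.43, limma adjusted p 0.797). The values overlapped in both, since wild type replicate 3 exceeded knockout replicate 2. Among the well-covered genes with negative values was the phosphatase Dusp4, at -0.35 (limma adjusted p 0.976).

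A list of 13 genes tied to the Dppa proteins and Utf1, with DNA methylation and Polycomb factors, had 12 tested in 15 transcripts. None passed and the median log2 difference was 0.03, with 8 above 0 and 7 below. Cdkn2a, a cell cycle inhibitor locus that Utf1 restrains in mouse ES cells, had 5.17, 5.50 and 7.15 in the knockout libraries against 12.8, 11.6 and 15.8 in the wild type libraries. All 3 knockout libraries were lower by a wide margin, with a log2 difference of -1.11 (SE 0.18, limma p 0.000331), yet the adjusted p was 0.339. The genotypes did not overlap, in either direction, in 11.9% of all transcripts. Another listed Cdkn2a isoform was read in wild type replicate 2 only, at 2.11, and was not tested. The other named members were Tet2, an oxidase of methylated DNA, at 0.53 (limma adjusted p 0.922), Dnmt3l, a cofactor of DNA methylation, at 0.51 in isoform NM_019448.4 (limma adjusted p 0.840) but at 0.03 in the better covered isoform NM_001284197.1 (limma adjusted p 0.999), and the nuclear exporter Xpo1 at -0.44 (limma adjusted p 0.963).

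A list of 18 genes named for the cleavage-stage programme was covered thinly, with 14 tested in 14 transcripts. Which of them Dppa2 and Dppa4 act on was not tested. None passed, and 1 lay above 0 and 13 below, with a median log2 difference of -0.51. Their summed levels were 87.9, 87.4 and 40.8 in the knockout libraries against 146, 118 and 59.4 in the wild type libraries, so replicate 3 was lowest in both genotypes and the ranges overlapped. Tcstv3 had 8.17, 7.35 and 2.46 in the knockout libraries against 14.4, 9.95 and 5.69 in the wild type libraries (-0.75, limma adjusted p 0.891), and Zscan4c had 8.31, 8.82 and 3.68 in the knockout libraries against 16.9, 12.4 and 5.63 in the wild type libraries (-0.67, limma adjusted p 0.908). Many of these genes belong to families of near-identical copies, whose reads may be split or shared, so the 14 values are not independent.

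Methylation was then asked of the same transcripts. Summed over the cytosines listed in every library, non-conversion of the members ran near the level of all mRNAs, whose median over 8212 transcripts was 1.84%, 1.83% and 1.46% in the knockout libraries and 1.66%, 1.48% and 1.56% in the wild type libraries. Dppa5a, the deepest, had 1.62%, 1.61% and 1.28% in the knockout libraries against 1.37%, 1.26% and 1.32% in the wild type libraries. Tdgf1 had 1.75%, 1.72% and 1.32% in the knockout libraries against 1.5%, 1.36% and 1.47% in the wild type libraries. In both, knockout replicates 1 and 2 lay above the wild type and knockout replicate 3 among or below it, the same order as in the median of all transcripts.

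Utf1 ranged from 1.45% to 1.75% in the knockout and from 1.46% to 1.60% in the wild type, and Fgf4 from 1.41% to 1.96% in the knockout and from 1.46% to 1.66% in the wild type. Gdf3 ranged from 1.35% to 1.72% in the knockout and from 1.33% to 1.59% in the wild type, and Dppa2 from 1.20% to 1.63% in the knockout and from 1.26% to 1.51% in the wild type. Dppa4 alone did not overlap, with 1.74%, 1.83% and 1.74% in the knockout libraries against 1.31%, 1.48% and 1.33% in the wild type libraries, from 604 to 2778 readings of a cytosine per library. The knockout lay wholly above the wild type in 6.47% of all 8212 transcripts, and the genotypes were apart in either direction in 7.6%. Dppa3, on 65 cytosines, scattered from 1.03% to 2.85% in the knockout and from 1.25% to 2.19% in the wild type.

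The edgeR quasi-likelihood test on these sums called 2 of 8212 transcripts (0.0244%) and none of the 8 members tested; 253 (3.08%) had an unadjusted p under 0.05, none of them a member. The median log2 odds ratio, knockout over wild type, was 0.13 over all transcripts, and the members lay at 0.36 for Dppa4, 0.19 for Dppa5a, 0.18 for Fgf4, 0.14 for Tdgf1, 0.10 for Utf1 and 0.03 to 0.08 for Dppa2, Dppa3 and Gdf3 (edgeR adjusted p 0.936 to 0.984). Without knockout replicate 3, the library with the lowest background of its genotype, edgeR called 602 transcripts (7.33%), and Dppa5a (0.30, adjusted p 0.0176), Tdgf1 (0.28, adjusted p 0.0266) and Fgf4 (0.34, adjusted p 0.0352) among them. The background non-conversion of the libraries moved the same way, at 1.77%, 1.76% and 1.42% in the knockout and 1.59%, 1.45% and 1.5% in the wild type, and its part in this was not tested.

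**Figure D4:**
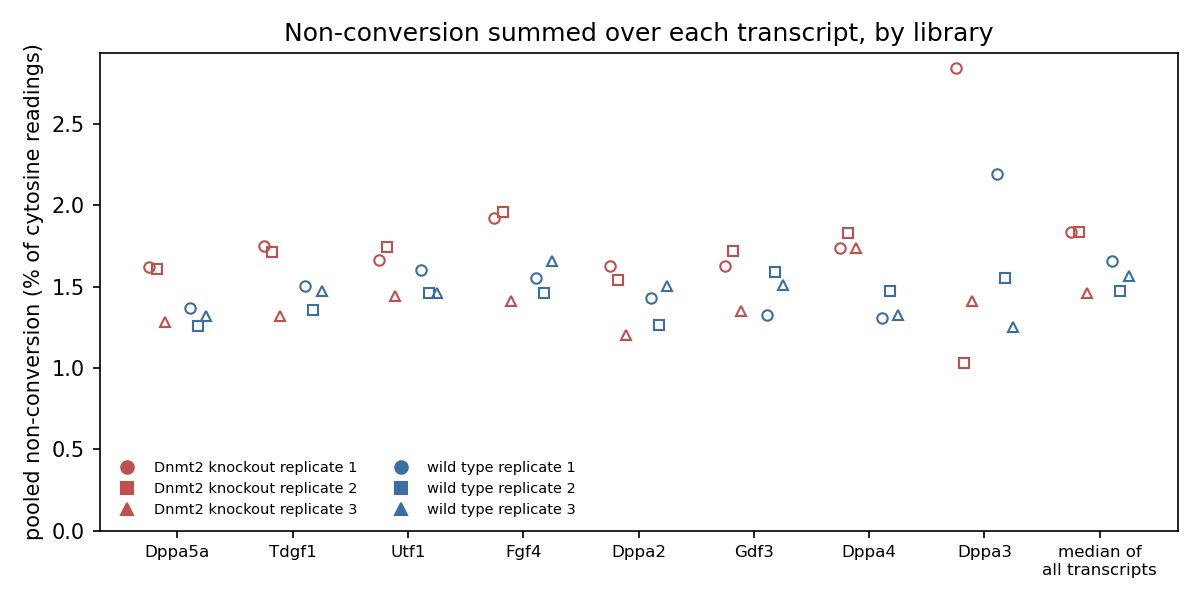
Non-conversion summed over each transcript (y axis, % of cytosine readings) for 8 members and the median of 8212 transcripts, 1 point per library, knockout red and left of wild type in blue. Knockout replicate 3 lies below the other knockout libraries in the median of all transcripts (1.46% against 1.83% and 1.84%) and in 6 of the 8 members.

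No single cytosine of a member passed the test between genotypes. The test took 8181 mRNA cytosines that all 6 libraries covered with 10 reads or more and that averaged at least 5%. Of these edgeR called 0%, and 201 (2.46%) had an unadjusted p under 0.05. The members held 16 of them, 8 in Fgf4, 3 in Gdf3, 2 in Utf1 and 1 each in Tdgf1, Dppa5a and Dppa2, and none of the 16 had an unadjusted p under 0.05 (edgeR adjusted p 0.999 each). Sites under 10 reads in any library, such as Fgf4 position 723 and Tdgf1 position 1108, did not enter. With the mean floor lowered to 1%, edgeR called 0 of 535267 cytosines, 1159 of them in members. There 43 member cytosines had an unadjusted p under 0.05, against 15435 of all. No member cytosine at 10 reads or more in every library had a mean of 10% or more, among 374 in Fgf4, 365 in Utf1, 313 in Tdgf1, 217 in Gdf3, 143 in Dppa5a, 135 in Dppa2 and 28 in Dppa4. Dppa3 had none at that depth.

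Within each genotype, a cytosine was called above background when it had 10 reads and 10% non-conversion or more in every library and passed a combined exact binomial test against the background. In the knockout 387 of 1365927 cytosines (0.0283%) were called and 0 of 2297 in members, and in the wild type 162 of 765735 (0.0212%) and 0 of 1576 in members. With the floor lowered to 5% the calls were 1018 (0.0745%) in the knockout and 452 (0.059%) in the wild type, and 4 member calls appeared, 2 in each genotype. They were Fgf4 position 240 (adjusted p 0.0137, exact binomial) and Tdgf1 position 1108 (0.026) in the knockout, and Fgf4 position 111 (0.0386) and Dppa5a position 244 (7.31e-17) in the wild type. The 2 knockout sites could not be called in the wild type. Its replicate 3 had 9 reads at Fgf4 position 240 and 6 at Tdgf1 position 1108, under the 10 needed. Tdgf1 position 1108 rested on 4 of 18, 2 of 11 and 1 of 11 reads in the knockout libraries.

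Dppa5a position 244 was the only one of these read deeply. Non-conversion there was 7.90%, 6.62% and 3.51% in the knockout libraries, from 1178, 997 and 882 reads, against 5.55%, 5.12% and 5.66% in the wild type libraries, from 541, 782 and 212 reads. Knockout replicates 1 and 2 were above the wild type and knockout replicate 3 below it, with a Wilson 95% interval of 2.49% to 4.95% that covers counting error only. The means were 6.01% ± 2.25 in the knockout and 5.44% ± 0.287 in the wild type (SD, n = 3 each), and the log2 odds ratio of 0.10 turned to -0.16 without knockout replicate 1.

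This cytosine was picked as the Dppa5a site with the highest mean non-conversion over these 6 libraries. Its place above the rest of the transcript thus follows largely from that choice, and the values describe the size of the gap. Over the other 125 Dppa5a cytosines with 100 reads or more in every library, pooled non-conversion ran from 0.544% to 3.18% (median 1.43%) in the knockout and from 0.499% to 3.03% (median 1.28%) in the wild type, while position 244 reached 6.22% (190 of 3057 reads) in the knockout and 5.34% (82 of 1535 reads) in the wild type. The nearest listed cytosines, 241 and 248, had 2.09% and 2.43% in the knockout and 1.69% and 2.05% in the wild type. Against the library background alone the exact binomial adjusted p was 8.08e-48 in the knockout and 7.31e-17 in the wild type. That background is 1 value per library and leaves out the spread between cytosines of a transcript. The p-values thus reflect read depth as well as the level of the site. The knockout missed the 5% floor only through replicate 3.

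Such a level was uncommon but not unique: among 17101 mRNA cytosines with 200 reads or more in every library, 114 of them in members, 23 in 15 transcripts lay at or above its mean of 5.73%, and the median was 1.57%. The source of these reads was not tested. Position 256 of the same transcript, the highest of the other 125 in both genotypes, had 3.18% in the knockout and 3.03% in the wild type.

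**Figure D5:**
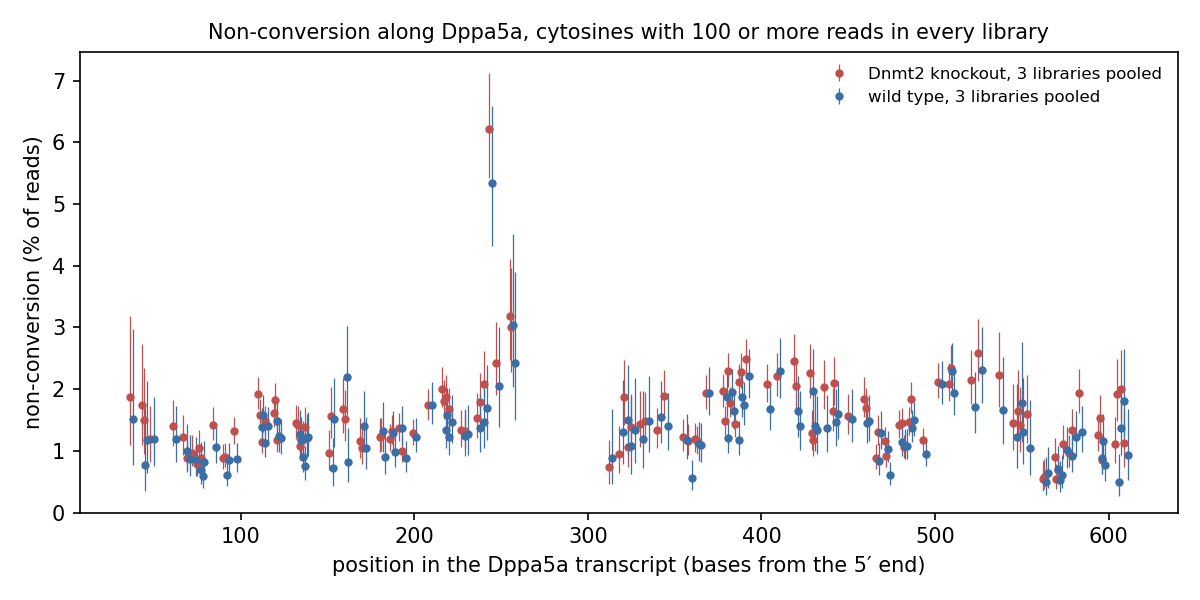
Non-conversion (y axis, % of reads, 3 libraries pooled) at Dppa5a cytosines with 100 reads or more in every library, by position from the 5′ end (x axis, points of the genotypes set slightly apart), knockout red and wild type blue, with Wilson 95% intervals for counting error. Position 244 reaches 6.22% in the knockout and 5.34% in the wild type, and all 125 others lie at or below 3.18%.

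The other member sites described here had fewer reads than Dppa5a position 244 in every library. Fgf4 held a run of 6 of the 16 tested cytosines between positions 107 and 116. At position 108 non-conversion was 9.62%, 0% and 14.8% in the knockout libraries and 4.35%, 6% and 21.4% in the wild type libraries, and at position 111 it was 8.89%, 0% and 0% in the knockout libraries and 9.52%, 6.12% and 25% in the wild type libraries. The 25% of wild type replicate 3 was 3 of 12 reads, with a Wilson interval of 8.89% to 53.2%, and neighbouring cytosines share reads. Tdgf1 position 1493, with 69 reads or more in every library, had 8.38%, 3.92% and 4.19% in the knockout libraries and 3.88%, 1.35% and 4.35% in the wild type libraries. Tdgf1 positions 1127 and 1152, with higher means over the 6 libraries, leaned to the wild type. Position 1127 averaged 3.07% in the knockout and 8.08% in the wild type, with as few as 10 reads in a library. Position 1152 averaged 3.30% in the knockout and 6.22% in the wild type, with as few as 26.

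The highest sites of the other members were no clearer. Gdf3 position 505 had 11.1%, 5.13% and 0% in the knockout libraries against 3.23%, 4.08% and 10.0% in the wild type libraries, from 10 to 49 reads each. Dppa2 position 269 had 7.90%, 10.5% and 0% in the knockout libraries against 0%, 4.55% and 9.09% in the wild type libraries, from 11 to 44 reads each. Utf1 position 454 had 0%, 6.06% and 3.33% in the knockout libraries against 0%, 7.14% and 18.2% in the wild type libraries, from 11 to 56 reads each. The highest Dppa4 site, position 380, averaged 3.99% over the 6 libraries.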

How the data were processed

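Per the file headers, the rows of a deposited file are cytosines of reference RNAs with their coverage, a read count that is not normalized, and their unconversion ratio, a fraction from 0 to 1. BSMAP and build mm9 are named per the submitters' processing notes; version, filters and strand handling were not stated in these sources. Listed coverage started at 3 reads, and an unlisted cytosine was taken as 0. Coverage times fraction was whole within 8e-10 (tolerance 0.01), so non-converted read counts were recovered from the deposited values. References (15239 of 15330) were matched by accession, ignoring its version, to a RefSeq gene table of assembly GRCm38.p6, used for names and gene order only. Positions are numbered from the 5′ end; for Utf1 and Fgf4 all 17 and 19 listed positions in the first 50 bases fell on a C of the RefSeq window.

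The 3 Dnmt2 knockout and 3 wild type rRNA-depleted long libraries were grouped by the labels; the other 10 libraries list no mRNA of these genes and were not used. Coverage per transcript, averaged over cytosines listed in any library, was divided by TMM factors (0.365 to 1.63), filtered at a mean of 1, given a pseudocount of 0.5, which shrinks the differences of thinly covered transcripts, log2 transformed and fitted in limma 3.58.1 with a trend. Non-conversion was tested with the edgeR 4.0.16 quasi-likelihood test (R 4.3.3) on both read classes, library being a term of the model. Adjusted p-values are Benjamini-Hochberg over all transcripts or cytosines tested, with 0.05 as the threshold. Calls within a genotype combined 1-sided exact binomial tests, 1 per library against its own background (cytosines at 10 reads or more and 10% or less), by Fisher's method. Fits were tested on simulated data. Depth sets the precision: intervals cover counting error only, since reads were not tied to single molecules by identifiers.

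The 8 genes, the gene lists and the naming rule were chosen with earlier results of these data known. The rule names all member transcripts, in each list the 2 largest log2 differences in each direction at a mean of 5 or more, the 2 transcripts most like each member, the nearest listed neighbours, and in each member the 3 cytosines with the highest mean non-conversion plus any called. 1 gene that the rule names is not reported here; Postn, Lum and Dcn were named after their values were seen. Alternatives were DESeq2 (1.42.0) size factors, total coverage, other pseudocounts and filters, the median, cytosines listed in every library, array weights, a replicate block, and leaving out libraries.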

Additional observations from a re-analysis of the deposited data

How the results depend on the processing

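No member passed in coverage under any alternative, and 152 of their differences kept their direction while 7 turned. The count of all transcripts past the threshold (0) became 1 on cytosines listed in every library, 1 with the median over cytosines, 4 with array weights, and 0 to 1 on leaving out a library. With the median the difference over all transcripts shifted to 0.17, and Gdf3 turned to 0.033. Leaving out a library gave -0.22 to 0.019 for Gdf3, -0.18 to 0.20 for Dppa4 and -0.05 to 0.28 for Dppa2. It also gave 0.025 to 0.47 for Tdgf1, 0.13 to 0.61 for Dppa3 and 0.034 to 0.20 for Utf1; with the median Dppa3 stood at 1.55 and Utf1 at 0.060. Dppa4 also turned to 0.069 on cytosines listed in every library and to 0.020 without both libraries numbered 3, a setting chosen after seeing the data; the cause of these turns was not tested. Dppa5a kept 0.50 to 0.74 and Fgf4 0.26 to 0.40 on leaving out a library.

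The replicate numbers share no stated source, and deviations of same-numbered libraries correlated at 0.135, 0.0361 and 0.295 for numbers 1, 2 and 3. Wild type replicate 1 was nearest to knockout replicate 2 (0.207), and wild type replicate 2 to knockout replicate 1 (0.0936). With a replicate block the counts were 0 for coverage, 0 for single cytosines and 2 for pooled non-conversion, and the limma adjusted p was 0.344 for Dppa5a and 0.357 for Fgf4.

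Single cytosines past the edgeR threshold (0) numbered 0 to 1 on leaving out a library. Transcripts past it in pooled non-conversion (2) numbered 0 on cytosines at 10 reads, 42 without both libraries numbered 3, and 0 to 602 on leaving out a library, with 0 to 3 members. The log2 odds ratios on leaving out a library ran from -0.00076 to 0.17 for Gdf3, -0.16 to 0.44 for Dppa5a position 244, -0.0059 to 0.22 for Dppa2 (-0.066 on cytosines at 10 reads) and -0.53 to 0.32 for Dppa3; the cause was not tested. Calls within the knockout (387) were 217 at 20 reads and 1018 at a 5% floor, with 0 to 1 member calls on leaving out a library and 2 at the 5% floor. Within the wild type (162) they were 259 at 5 reads, 77 at 20 reads, 452 at a 5% floor with 2 member calls, and 216 to 357 on leaving out a library. Depth limits Dppa3, the Dppa4 isoform NM_001018002.1 and the Fgf4 sites at positions 107 to 116.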

Other observations

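Several of these genes lie next to one another or to other stem cell genes, and the neighbours were listed by the order of the gene table. Beside Dppa5a on chromosome 9 lies Ooep, which encodes an egg and early embryo KH domain protein related to it. Ooep had a scaled mean coverage of 46.8, 48.3 and 24.9 in the Dnmt2 knockout libraries against 24.9, 22.1 and 18.2 in the wild type libraries. The lowest knockout library was level with the highest wild type library, and the log2 difference of 0.82 (SE 0.26) had a limma adjusted p of 0.462. On the other side Gsta4, a glutathione transferase, had 149, 157 and 141 in the knockout libraries against 151, 102 and 141 in the wild type libraries (log2 difference 0.21, limma adjusted p 0.963).

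On chromosome 6 Gdf3 and Dppa3 are followed by Nanog, a core factor of the stem cell network. In its better covered isoform Nanog had 9.14, 13.5 and 6.67 in the knockout libraries against 6.24, 4.76 and 3.71 in the wild type libraries. Every knockout library lay above every wild type library, as in 6.09% of all transcripts, with a log2 difference of 0.90 (SE 0.28, limma adjusted p 0.445). Another listed Nanog isoform was read only in knockout replicate 2, at 4.53, and wild type replicate 2, at 0.49, and was not tested. On chromosome 16 Dppa4 and Dppa2 are followed by the germline gene Morc1, with 13.9, 17.3 and 8.63 in the knockout libraries against 14.0, 9.48 and 6.30 in the wild type libraries (0.41, limma adjusted p 0.962). Lrrc2, next to Tdgf1 on chromosome 9, had 8.79, 10.6 and 8.63 in the knockout libraries against 7.45, 6.0 and 5.21 in the wild type libraries (0.56, SE 0.18, limma adjusted p 0.476). Fgf15, next to Fgf4 on chromosome 7, had 3.08, 3.88 and 3.11 in the knockout libraries against 2.96, 2.49 and 2.19 in the wild type libraries (0.34, limma adjusted p 0.936). Both neighbours of Utf1, Kndc1 and Spef1l, stayed under 1.9 in every library and were not tested.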
